A study of Homo sapiens with 27 samples.

Results

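The genes described are 50 genes of mitosis and cytokinesis, picked by symbol and role, with earlier results of these data known. All 50 were found among the 60683 genes of the deposited tables, and all 50 were among the 16173 genes with enough counts to be tested. Messenger RNA was sequenced from MCF10DCIS.com, an established human breast line that models carcinoma still confined to the ducts. Flasks received 500000 cells and, after 6 h, calcium oxalate crystals at 0.1 mg/mL. COM is the monohydrate as plates, and the other 4 forms are the dihydrate: TK for thick and TN for thin bipyramids, SPH for spheres and DB for dumbbells. Controls of the same line got no crystals. There were 7 control libraries (A to G) and 4 libraries (A to D) of each crystal form. The sources used here do not give how long the crystals stayed on the cells, or whether each library had a culture of its own. P-values therefore measure the spread between these libraries, which may be technical.

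A dividing cell enters mitosis when the kinase CDK1 is switched on by cyclin B. Kinetochores then tie each chromosome to spindle microtubules, a checkpoint delays anaphase until all are attached, and kinesin motors and the chromosomal passenger complex shape the spindle and the cleavage furrow. Most of the genes are transcribed late in the cell cycle, under MuvB complexes that hold B-MYB (MYBL2) and FOXM1, while E2F factors drive the genes of S phase. In RNA of whole cultures, fewer cells in mitosis and less mitotic RNA per cell cannot be told apart.

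Total counts per library ran from 13115649 to 38672448. The serial numbers in the deposited names put the libraries into 3 library sets. Numbers 1 to 10 (set 1) are the A and B libraries of every group but TK. Numbers 11 to 22 (set 2) are controls C to F, all 4 TK libraries and the C libraries of the other forms. Numbers 23 to 27 (set 3) are control G and the D libraries other than TK and control D. Unless another fit is named, differences come from a fit with the set as a term. All TK libraries are in set 2, so values within that set are given further on. The place of TN C is uncertain, because its mean fragment length of 297.0 nt lay in the range of set 1 (257.8 to 319.1 nt) and not of the other set 2 and set 3 libraries (197.6 to 247.7 nt). Basal epithelial markers were present in every library (KRT5 at 1994 to 3286 CPM, counts scaled to library size), and so were luminal keratins (KRT8 at 1363 to 2512 CPM) with GATA3 and FOXA1, while PGR was at 0 in 21 of 27. Among leukocyte markers, CD68 (3.31 to 21.1 CPM) and LYZ (0.086 to 58.6 CPM) had counts in every library. PTPRC, CD3E and FCGR3A were at 0 in 20 or more. Of 6 fibroblast markers, COL1A1 (7.17 to 13.04 CPM) and PDGFRB had counts in every library, and the other 4 were at 0 in 15 or more. Library TN B stood apart by liver transcripts, with ALB at 659 CPM against a median of 1.36 over all libraries. It also held the highest LYZ, at 58.6 CPM against a median of 0.655. The part of TN B in the TN results is given by leaving it out.

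Promoter letters of 5 members, picked by their calls, are shown first. RefSeq promoter windows (GRCh38.p14, 250 bases before to 50 after each gene's start) were found for 44 of the 50 genes, in 54 windows because some genes have several starts. The 3 motifs were searched on both strands, overlaps allowed: the cell cycle genes homology region (CHR; TTTGAA or TTTAAA), the CCAAT box (CCAAT) and an E2F core (TTNNCGC with each N a C or a G). The sequences are the 150 bases before the RefSeq start, 5′ to 3′ on the gene's own strand, with matches to the 3 motifs in capitals. Gene positions given further on are from GENCODE, whose starts differ from these. By the GENCODE starts, the KIF20A stretch lies inside the gene and those of CCNB1 and MYBL2 lie largely inside. The stretches of CKS2 and KIF11 lie before the gene in both.
CCNB1 (chr5:69167000-69167149, plus strand): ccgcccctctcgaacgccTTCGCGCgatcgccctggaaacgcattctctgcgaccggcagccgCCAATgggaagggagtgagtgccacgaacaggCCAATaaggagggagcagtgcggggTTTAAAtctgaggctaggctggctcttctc
CKS2 (chr9:89311045-89311194, plus strand): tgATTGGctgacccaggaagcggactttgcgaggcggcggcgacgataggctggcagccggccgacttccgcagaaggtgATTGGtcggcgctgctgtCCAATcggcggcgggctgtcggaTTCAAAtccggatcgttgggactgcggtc
KIF20A (chr5:138178962-138179111, plus strand): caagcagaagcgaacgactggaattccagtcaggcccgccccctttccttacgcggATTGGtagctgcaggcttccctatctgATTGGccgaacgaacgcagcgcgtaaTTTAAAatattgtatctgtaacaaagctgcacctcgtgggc
KIF11 (chr10:92592980-92593129, plus strand): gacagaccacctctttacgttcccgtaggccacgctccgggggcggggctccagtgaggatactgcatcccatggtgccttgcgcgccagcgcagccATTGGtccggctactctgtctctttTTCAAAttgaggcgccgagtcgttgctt
MYBL2 (chr20:43666964-43667113, plus strand): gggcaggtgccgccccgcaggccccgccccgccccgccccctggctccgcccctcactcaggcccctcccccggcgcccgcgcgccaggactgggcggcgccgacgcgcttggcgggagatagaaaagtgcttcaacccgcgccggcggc
CCNB1, CKS2 and KIF20A are shown because they were lower with COM and with DB, KIF11 because it was higher with TK, and MYBL2 because it had the largest difference with TK. The first 4 hold a CHR and at least 1 CCAAT box close together, and the MYBL2 stretch holds no exact match. Near matches were not counted: ttggcgg in the MYBL2 stretch differs from the E2F core in its last base. A CHR was found in 43 of the 54 windows (79.6%) against 24% of all 35116 promoter windows, and a CCAAT box in 77.8% against 34.6%. Both stood together in 64.8% of the windows of these genes and in 9.3% of all windows. An E2F core was found in 33.3% against 13%, and in 65.5% of the 29 windows of a list of S phase genes, of which 20.7% held a CHR. All 10 kinesin windows held a CHR. Among members called lower, a CHR was found in 85.0% of 20 windows with COM and 76.9% of 13 with DB. For members called higher with TK it was 88.9% of 9 windows, beside the 79.6% of all members. A match is a run of letters and was not tested as a site of binding. Whether the letters bear on which genes moved was not tested.

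With COM, 22 of the 50 genes were lower than in controls and none was higher. Of all genes tested, 2.42% were called lower and 3.94% higher (edgeR quasi-likelihood test, adjusted p under 0.05). The median log2 difference of the 50 was -0.26 against -0.01 over all genes, and 49 of 50 were below 0. With DB, 13 were lower and none was higher, against 4.1% and 5.92% of all genes, and the median was -0.18. SPH gave 1 lower gene, KIF20A, and none higher, against 0.0309% and 0.0804% of all genes. Its median was -0.09, with 9 of the 50 at an unadjusted p under 0.05. Both bipyramid forms gave medians above 0. With TK, 10 genes were higher and none was lower, against 8.04% and 7.33% of all genes, with a median of 0.14. With TN, 6 were higher and 1 was lower, against 6.84% of all genes called higher and 4.88% called lower, with a median of 0.06. Without the set term TN had 1 lower and 0 higher, against 1.82% and 2.47% of all genes. Without TN B, 5 were higher and 0 lower, without TN A the calls fell to 2 and without Control A to 4. Single libraries moved the other counts too: COM had 14 lower genes without COM A or without COM B, DB had 8 without DB B, and TK had 6 higher without TK C. Shares of all genes are not given for the fits without a library. Whether these counts followed the number of all genes called was not tested. The 5 differences share the control libraries. A joint test of any difference between the 6 groups called 39 of the 50 against 23.2% of all genes.

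**Figure D1:**
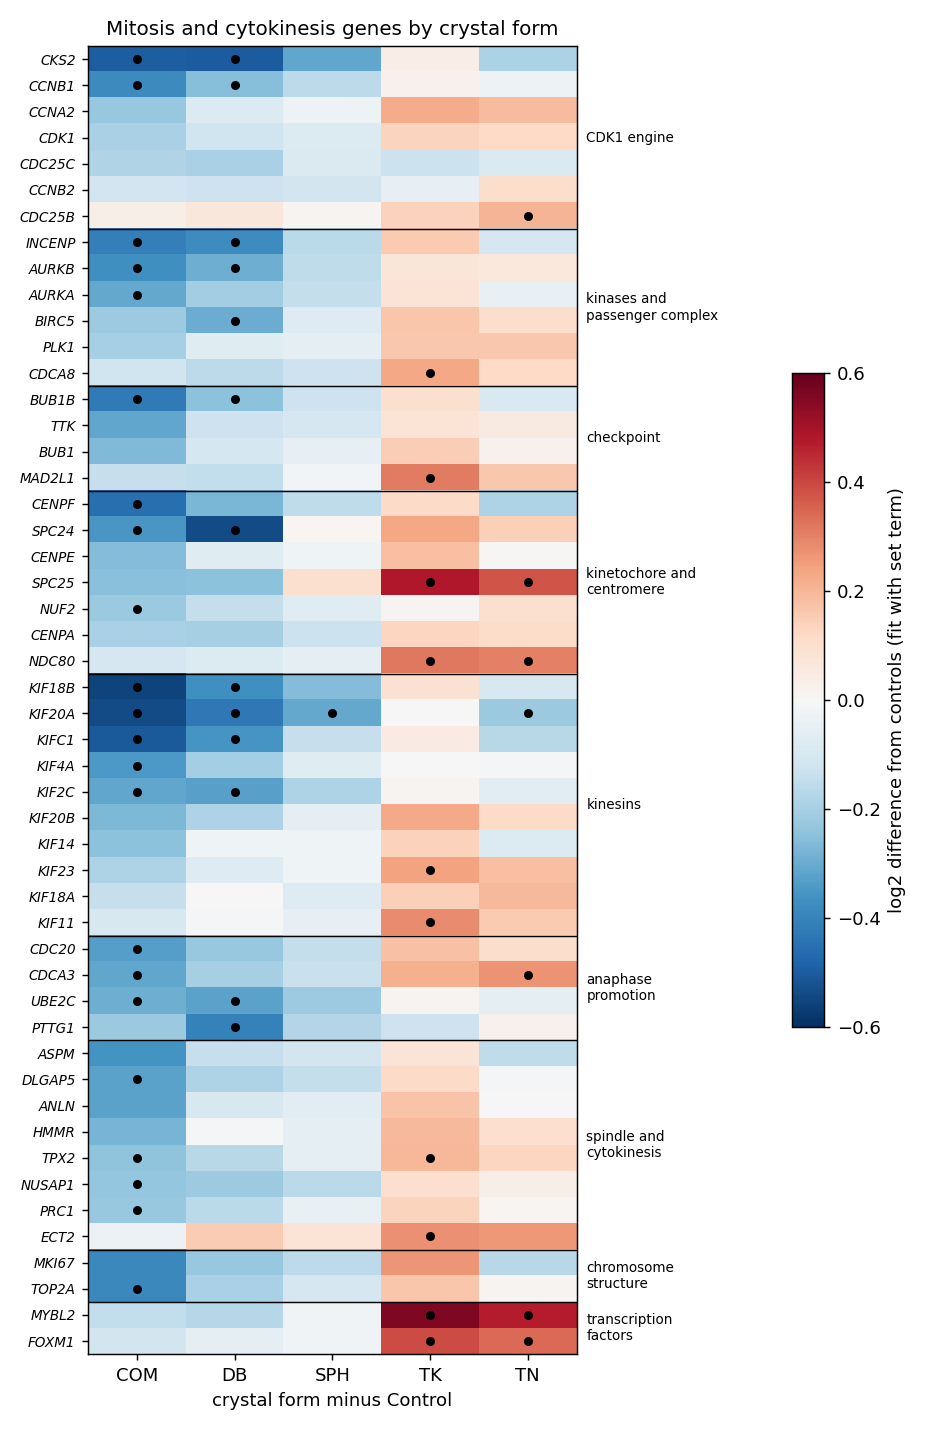
Difference of each crystal form (columns) from controls for the 50 genes (rows, by role), as log2 from the fit with the set term; colour gives the size and a dot marks an adjusted p under 0.05. Blue columns for COM and DB hold 22 and 13 dots, all lower, and the red column for TK holds 10, all higher.

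Counts by role from here on stand beside the same shares of all genes. These were 2.42% lower with COM, 4.1% lower with DB, 8.04% higher with TK and 6.84% higher with TN. The CDK1 engine is the kinase with its cyclins, CDC25 phosphatases and small subunit. In the controls these 7 genes ran from 15.4 ± 1.82 TPM (SD, n = 7; TPM scale a level to transcript length and library size) for CDC25C to 256 ± 43.3 TPM for CKS2. CCNB1 (chr5:69167010-69178245, plus strand) encodes cyclin B1, the activating partner of CDK1. CCNB1 ran from 155 to 207 CPM in controls, with a median of 201. Its COM libraries A to D held 144, 131, 161 and 133 CPM, and its DB libraries 160.5, 146, 168 and 145. All 8 lay below the 6 controls other than G, which was the lowest, and overlapped G only through COM C, DB A and DB C. SPH gave 169, 179.5, 158 and 157 CPM, TK 206, 200.5, 208 and 201, and TN 201, 183, 191 and 151. TK libraries lay in the upper part of the control range or just above it, and TN spread from there to below control G. CCNB1 fell with COM (log2 -0.38, SE 0.06, adjusted p = 0.000285) and with DB (log2 -0.26, SE 0.06, adjusted p = 0.00955). The DB call was lost without DB B (adjusted p = 0.0593). CKS2 (chr9:89311198-89316703, plus strand), a small subunit that binds CDK1, ran from 69.5 to 98.99 CPM in controls, with a median of 76.2. It held 57.8, 44.01, 63.6 and 59.7 CPM with COM and 59.7, 51.7, 57.9 and 55.4 with DB. Neither group overlapped the controls. SPH libraries held 70.7, 51.3, 61.01 and 72.6 CPM, TK 87.7, 79.8, 96.7 and 82.5, and TN 71.6, 73.9, 69.5 and 62.7. TK lay inside the control range, and SPH B, SPH C, TN C and TN D lay below it. The CKS2 differences were nearly equal for COM (log2 -0.49, SE 0.10, adjusted p = 0.00371) and DB (log2 -0.50, SE 0.10, adjusted p = 0.00317), while SPH (log2 -0.31, SE 0.10, adjusted p = 0.47) was not called. CCNA2, CCNB2, CDK1 and CDC25C were called with no form, and CDC25B, a phosphatase that activates CDK1, was called only with TN (log2 0.20, adjusted p = 0.0326).

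Among the 6 genes of mitotic kinases and the chromosomal passenger complex, which corrects attachments and later marks the cleavage plane, 3 fell with COM, 3 fell with DB and 1 (CDCA8, log2 0.23) rose with TK. AURKB (chr17:8204733-8210600, minus strand) encodes the kinase of the complex. It ran from 43.7 to 57.6 CPM in controls, with a median of 53.7. COM libraries held 33.99, 32.8, 44.2 and 42.2 CPM and DB libraries 37.3, 31.9, 50.5 and 42.8. COM overlapped the controls only through COM C and DB only through DB C. SPH gave 46.4, 40.6, 47.2 and 42.5 CPM, TK 59.2, 60.5, 55.9 and 54.9, and TN 49.8, 56.2, 49.2 and 49.1. AURKB fell with COM (log2 -0.37, SE 0.08, adjusted p = 0.00579) and with DB (log2 -0.29, SE 0.08, adjusted p = 0.0211), though not with DB when DB A (adjusted p = 0.0588) or DB B (0.115) was left out. AURKB was also higher in untreated cells of set 2 than of set 1 (log2 0.28, adjusted p = 0.0322). INCENP (chr11:62123973-62153163, plus strand), the scaffold of the complex, ran from 50.2 to 65.1 CPM in controls, with a median of 57.8. It held 35.1, 42.4, 43.7 and 47.2 CPM with COM and 41.8, 34.9, 50.1 and 45.2 with DB, all below the lowest control. SPH gave 36.02, 53.3, 52.4 and 58.5 CPM, TK 65.4, 68.4, 62.7 and 65.1, and TN 52.2, 47.04, 52.7 and 55.1, and each of these overlapped the controls. INCENP fell with COM (log2 -0.41, SE 0.09, adjusted p = 0.00656) and DB (log2 -0.38, SE 0.09, adjusted p = 0.0092), the latter not without DB B (adjusted p = 0.0579). AURKA, the centrosomal Aurora kinase, fell with COM (log2 -0.31, adjusted p = 0.00755), and BIRC5 (survivin), also of the complex, fell with DB (log2 -0.30, adjusted p = 0.0185). PLK1 was called with no form.

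The spindle checkpoint holds back CDC20 until chromosomes are attached, and 2 of its 4 genes differed between groups by the joint test. BUB1B (chr15:40161023-40221136, plus strand) encodes BubR1, part of the inhibitory complex. It ran from 93.8 to 122 CPM in controls, with a median of 109. COM gave 67.4, 73.4, 93.7 and 76.2 CPM and DB 91.9, 81.3, 97.9 and 79.3. COM C lay just below the lowest control, G, and DB C was the 1 DB library inside the control range. SPH gave 78.8, 104, 94.6 and 103 CPM, TK 119, 125, 123 and 129, and TN 102, 84.3, 110.0 and 93.1. BUB1B fell with COM (log2 -0.42, SE 0.08, adjusted p = 0.00159). The fall with DB was at the threshold (log2 -0.25, SE 0.08, adjusted p = 0.0482) and was lost when any 1 of 22 of the 27 libraries was left out. MAD2L1 (chr4:120055608-120067074, minus strand), which binds CDC20 directly, ran from 52.7 to 78.2 CPM in controls, with a median of 71.6. TK libraries held 85.4, 85.7, 96.4 and 86.8 CPM, all above the highest control. COM gave 65.7, 59.9, 60.6 and 56.3 CPM, DB 61.2, 64.96, 67.9 and 48.7, SPH 65.9, 74.5, 61.1 and 62.1, and TN 85.3, 76.2, 80.2 and 58.5. TN A and TN C exceeded every control and TN D did not. MAD2L1 rose with TK (log2 0.31, SE 0.07, adjusted p = 0.00408), and its value with COM was not called (log2 -0.14, SE 0.07, adjusted p = 0.293). BUB1 and TTK were called with no form, at log2 -0.27 and -0.31 with COM.

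Of the 7 kinetochore and centromere genes, 3 fell with COM (CENPF, SPC24 and NUF2), 1 fell with DB (SPC24), 2 rose with TK and the same 2 with TN (SPC25 and NDC80). Levels in controls ran from 9.34 ± 1.56 TPM for CENPE, a kinesin at kinetochores, to 103 ± 12.7 TPM for CENPF. NDC80, NUF2, SPC24 and SPC25 are the 4 subunits of the complex that grips microtubules, and no difference between them was tested. All 4 were below 0 with COM and DB and above 0 with TK and TN. SPC24 (chr19:11131520-11155808, minus strand) ran from 24.04 to 30.8 CPM in controls, with a median of 27.5. It held 20.9, 17.5, 22.3 and 21.96 CPM with COM and 17.5, 16.5, 23.1 and 16.4 with DB, all below the lowest control. TK gave 36.7, 31.7, 32.8 and 33.5 CPM, all above the highest control, while SPH (24.2, 24.98, 27.2 and 30.4) and TN (30.9, 32.03, 25.9 and 27) overlapped the controls. SPC24 fell with DB (log2 -0.54, SE 0.09, adjusted p = 0.000606) and with COM (log2 -0.35, SE 0.09, adjusted p = 0.0209), the latter not without COM B (adjusted p = 0.0994) or COM C (0.0637). Its TK value (log2 0.23, SE 0.09, adjusted p = 0.0871) was called only without the set term (adjusted p = 0.0366). SPC25 (chr2:168834132-168913371, minus strand) ran from 10.5 to 13.5 CPM in controls, with a median of 12.02. TK gave 18.1, 17.1, 19.2 and 15.01 CPM, all above the controls, and TN 19.6, 15.2, 13.8 and 12.7, with A to C above them. COM gave 10.8, 8.31, 10.8 and 9.50 CPM, DB 11.2, 9.08, 11.5 and 8.33, and SPH 10.8, 13.9, 13.1 and 12.8. All 3 of these groups overlapped the controls. SPC25 rose with TK (log2 0.48, SE 0.11, adjusted p = 0.00494) and TN (log2 0.38, SE 0.11, adjusted p = 0.0254). The TN call was lost without TN A (adjusted p = 0.231), Control A (0.0547) or Control B (0.0693), and without the set term (0.0727).

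Kinesins are motors that slide or shorten spindle microtubules, and the 3 lowest COM values of the 50 genes were kinesins. With COM 5 of 10 fell (KIF18B, KIF20A, KIFC1, KIF4A and KIF2C), 4 of these also fell with DB (all but KIF4A), and 2 others, KIF11 (log2 0.28) and KIF23 (log2 0.24), rose with TK. KIF11 is the motor that pushes the spindle poles apart and KIF23 a motor of the midbody. KIF20A (chr5:138178719-138187715, plus strand), which carries the passenger complex to the spindle midzone, ran from 119 to 142 CPM in controls, with a median of 132. Libraries held 84.6, 88.02, 101 and 84.5 CPM with COM, 100.3, 91.7, 96 and 97.1 with DB and 99.3, 114, 107 and 98.98 with SPH. All 12 lay below the lowest control. TK gave 133, 134, 134 and 139.7 CPM, inside the control range, and TN 121, 100.1, 123 and 101, with B and D below it. KIF20A fell with COM (log2 -0.54, SE 0.06, adjusted p = 6.54e-06), DB (log2 -0.43, SE 0.06, adjusted p = 0.000141), SPH (log2 -0.31, SE 0.06, adjusted p = 0.0457) and TN (log2 -0.22, SE 0.06, adjusted p = 0.0194), and its TK value was log2 0.00. The SPH call was lost in 21 of the 27 fits that left out 1 library, and the TN call without TN B (adjusted p = 0.0802), TN D (0.0665) or Control B (0.0539). Its exons share 132 bases with BRD8 on the opposite strand, a gene of a chromatin complex with a mean count of 1370 against 2612 for KIF20A, and BRD8 was also lower with COM (log2 -0.42) and DB (log2 -0.29). The strand setting of the counting is not given, so reads of that stretch cannot be told apart. KIFC1 (chr6:33391536-33409924, plus strand), a motor that walks to the minus end and clusters poles, ran from 59.5 to 72.3 CPM in controls, with a median of 63.4. It held 43.3, 41.3, 47.3 and 48.5 CPM with COM and 45.2, 42.7, 56.05 and 57.1 with DB, all below the controls. SPH gave 58.6, 60.1, 52.8 and 59.7 CPM, TK 69.5, 68.5, 68.5 and 68.4, and TN 55.8, 56.6, 58.9 and 55.7, the last also all below the controls. KIFC1 fell with COM (log2 -0.50, SE 0.07, adjusted p = 3.14e-05) and DB (log2 -0.35, SE 0.07, adjusted p = 0.00149), and the TN value was not called (log2 -0.17, SE 0.07, adjusted p = 0.0992). KIF18B, which trims astral microtubules, had the lowest COM value of the 50 (log2 -0.55, SE 0.09, adjusted p = 0.000179). KIF14, KIF18A and KIF20B were called with no form. KIF4A has a near-identical copy, KIF4B, and its value is uncertain to that extent.

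The list of anaphase promotion holds 4 genes. CDC20, UBE2C and PTTG1 belong to the step at which a ubiquitin ligase destroys securin and cyclin B, and CDCA3 was listed with them. With COM 3 fell (CDC20, UBE2C and CDCA3), 2 fell with DB (UBE2C and PTTG1) and 1 rose with TN (CDCA3). UBE2C (chr20:45812576-45816957, plus strand), the conjugating enzyme of that ligase, ran from 60.3 to 65.5 CPM in controls, with a median of 64.5. It held 50.98, 49.4, 57.3 and 47.6 CPM with COM, 48, 48.4, 53.8 and 51.7 with DB and 55.3, 50.8, 55.1 and 55.2 with SPH. All 12 lay below the lowest control. TK gave 70.3, 62.5, 67.6 and 62.6 CPM and TN 64.5, 66.7, 57.01 and 53.04, with TN C and D below the controls. UBE2C fell with COM (log2 -0.29, SE 0.06, adjusted p = 0.00475) and DB (log2 -0.32, SE 0.06, adjusted p = 0.00218), and the SPH value was not called (log2 -0.22, SE 0.06, adjusted p = 0.363). CDCA3 (chr12:6844793-6852066, minus strand), a protein linked to mitotic entry, ran from 26.6 to 32.6 CPM in controls, with a median of 30.01. COM gave 21.4, 22.6, 26.6 and 22.97 CPM, DB 25.6, 22.3, 27.4 and 26.1, and SPH 27.3, 27.4, 25.7 and 25.5. Each group held libraries below the controls and at least 1 inside their range. TK gave 32.7, 33.2, 38.5 and 34.8 CPM, all above the highest control, and TN 37.5, 39.2, 32.8 and 30.5, with A to C above it. CDCA3 fell with COM (log2 -0.31, SE 0.08, adjusted p = 0.0173) and rose with TN (log2 0.27, SE 0.08, adjusted p = 0.0228), while TK was not called (log2 0.21, SE 0.08, adjusted p = 0.0736). The COM call was lost without COM A (adjusted p = 0.0947) or COM B (0.0648), and the TN call without TN A (0.13), TN B (0.082), Control A (0.0681) or the set term (0.0644). PTTG1 (securin) had the highest level of the 50 in controls (398 ± 33.9 TPM) and fell with DB (log2 -0.41, adjusted p = 0.00354).

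Of the 8 spindle and cytokinesis proteins, 4 fell with COM (TPX2, PRC1, NUSAP1 and DLGAP5) and TPX2 and ECT2 rose with TK. TPX2 (chr20:31739271-31801805, plus strand), which activates Aurora A on the spindle, ran from 157 to 197 CPM in controls, with a median of 188. COM gave 130.2, 132, 186 and 132 CPM, with C inside the control range and the others below it. TK gave 218, 228, 224 and 221 CPM, all above the controls, while DB (151, 139, 174 and 143), SPH (143, 173, 178 and 159.5) and TN (202, 172, 199.5 and 169.7) overlapped them. TPX2 fell with COM (log2 -0.24, SE 0.06, adjusted p = 0.0233) and rose with TK (log2 0.20, SE 0.07, adjusted p = 0.0403). Both calls were close to the threshold: the COM call was lost without COM A, B or D or Control B (adjusted p up to 0.107), and the TK call in 9 of 27 fits that left out 1 library. DLGAP5 (chr14:55148112-55191678, minus strand), which steadies kinetochore fibres, ran from 91.9 to 120.1 CPM in controls, with a median of 117. COM gave 84.9, 85.2, 95.7 and 79.3 CPM, DB 99.4, 94.7, 104 and 81.7, and SPH 90.2, 109, 90.7 and 98.3. COM C was the 1 COM library above the lowest control. TK gave 131, 122, 125 and 126 CPM, all above the controls, and TN 120.1, 94.96, 124 and 90.04. DLGAP5 fell with COM (log2 -0.32, SE 0.07, adjusted p = 0.00731) and was not called with TK (log2 0.12, SE 0.07, adjusted p = 0.31). PRC1, which bundles the central spindle, fell with COM at log2 -0.23, and ECT2, the exchange factor that starts furrowing, rose with TK at log2 0.27 (adjusted p = 0.0481). ANLN, HMMR and ASPM were called with no form.

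TOP2A and MKI67 are the 2 genes of chromosome structure. TOP2A (chr17:40388516-40417950, minus strand), the topoisomerase that untangles sister chromatids, ran from 230.2 to 293 CPM in controls, with a median of 264. COM gave 175, 184, 245 and 175 CPM, with C inside the control range and the others below it. TK gave 299.7, 334, 308 and 336 CPM, all above the controls, while DB (219, 227, 269 and 177), SPH (203, 269.6, 229 and 236) and TN (278, 225, 315 and 212) overlapped them. TOP2A fell with COM (log2 -0.39, SE 0.09, adjusted p = 0.0115), though not without COM A (adjusted p = 0.0623) or COM B (0.0522), and its TK value was not called (log2 0.17, SE 0.09, adjusted p = 0.249). MKI67 (chr10:128096659-128126385, minus strand) encodes Ki-67, which coats mitotic chromosomes and is the usual stain for proliferation. It ran from 278 to 401 CPM in controls, with a median of 355. COM gave 212, 285, 278 and 250.1 CPM, DB 284, 264, 323 and 278, and SPH 206, 336, 336 and 331. TK gave 434, 463, 395 and 468 CPM and TN 312, 216, 332 and 343. Every group overlapped the controls. MKI67 was not called with COM (log2 -0.39, SE 0.13, adjusted p = 0.0648) or TK (log2 0.26, SE 0.13, adjusted p = 0.164). It was called with COM by DESeq2 (adjusted p = 0.0298), and in edgeR without the filter on low counts it was called with COM (0.000261) and TK (0.0185).

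FOXM1 and MYBL2, transcription factors of late cell cycle genes, rose with both bipyramid forms, as SPC25 and NDC80 did, and were called with no other form. MYBL2 (chr20:43667019-43716496, plus strand) ran from 65.97 to 88.1 CPM in controls, with a median of 79.2. TK gave 129.6, 114, 128 and 113 CPM, all above the controls, and TN 129.9, 98.6, 90.5 and 82.2, with A to C above them. COM gave 58.9, 61.9, 81.3 and 61.6 CPM, DB 58.6, 61.5, 79.6 and 59.8, and SPH 62.3, 83.6, 74.2 and 65.96. The C libraries of COM and DB, both of set 2, were the highest of their groups. MYBL2 had the largest TK and TN values of the 50 (log2 0.56, SE 0.10, adjusted p = 0.000569 for TK and log2 0.47, SE 0.10, adjusted p = 0.00291 for TN). FOXM1 (chr12:2857681-2877155, minus strand) ran from 54.6 to 76.8 CPM in controls, with a median of 66.9. TK gave 95.4, 99.3, 93.1 and 92.4 CPM, all above the controls, and TN 92.6, 79.8, 96.1 and 62.01, with D inside their range. COM gave 54.3, 59.1, 78.2 and 51.1 CPM, DB 60.7, 61.5, 67.8 and 59.1, and SPH 58.8, 72.3, 68.4 and 56.4, all overlapping the controls. FOXM1 rose with TK (log2 0.39, SE 0.09, adjusted p = 0.00308) and TN (log2 0.34, SE 0.08, adjusted p = 0.00885). Without the set term the TN calls of both were lost (adjusted p = 0.0574 for MYBL2 and 0.156 for FOXM1), and without TN A that of FOXM1 (0.0846).

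**Figure D2:**
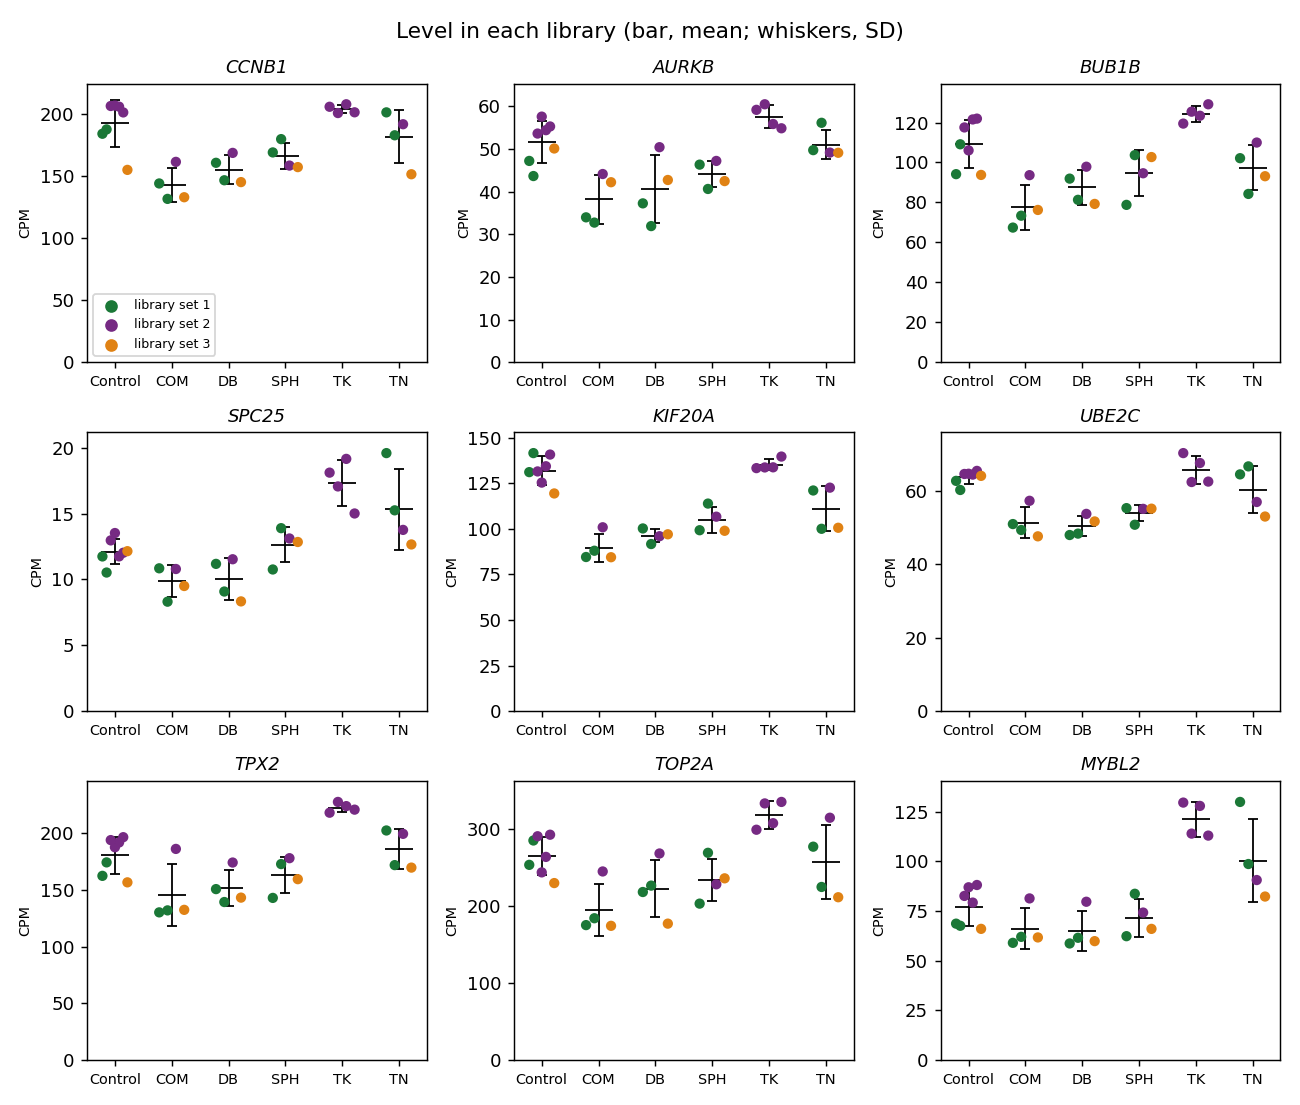
Level (CPM, axis from 0) of 9 of the genes in every library, by group and coloured by library set; bars are means and whiskers 1 SD. KIF20A and UBE2C show COM, DB and SPH below every control, and MYBL2 shows all 4 TK libraries above every control.

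Kinesin, kinetochore and checkpoint genes had close medians with COM, DB and TK, and no difference between these 3 groups of genes was tested. With COM the medians were -0.29 for kinesins (5 of 10 lower), -0.25 for kinetochore genes (3 of 7 lower) and -0.29 for checkpoint genes (1 of 4 lower). With DB they were -0.19 (4 lower), -0.20 (1 lower) and -0.14 (1 lower). With TK they were 0.11 (2 higher), 0.18 (2 higher) and 0.12 (1 higher). Of all genes, 2.42% were lower with COM, 4.1% were lower with DB and 8.04% were higher with TK. TN was the form with medians on both sides of 0, at -0.03 for kinesins, 0.11 for kinetochore genes and 0.04 for checkpoint genes. Within the groups the COM values of kinesins ran from -0.55 (KIF18B) to -0.10 (KIF11), those of kinetochore genes from -0.45 (CENPF) to -0.10 and those of checkpoint genes from -0.42 (BUB1B) to -0.14 (MAD2L1).

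**Figure D3:**
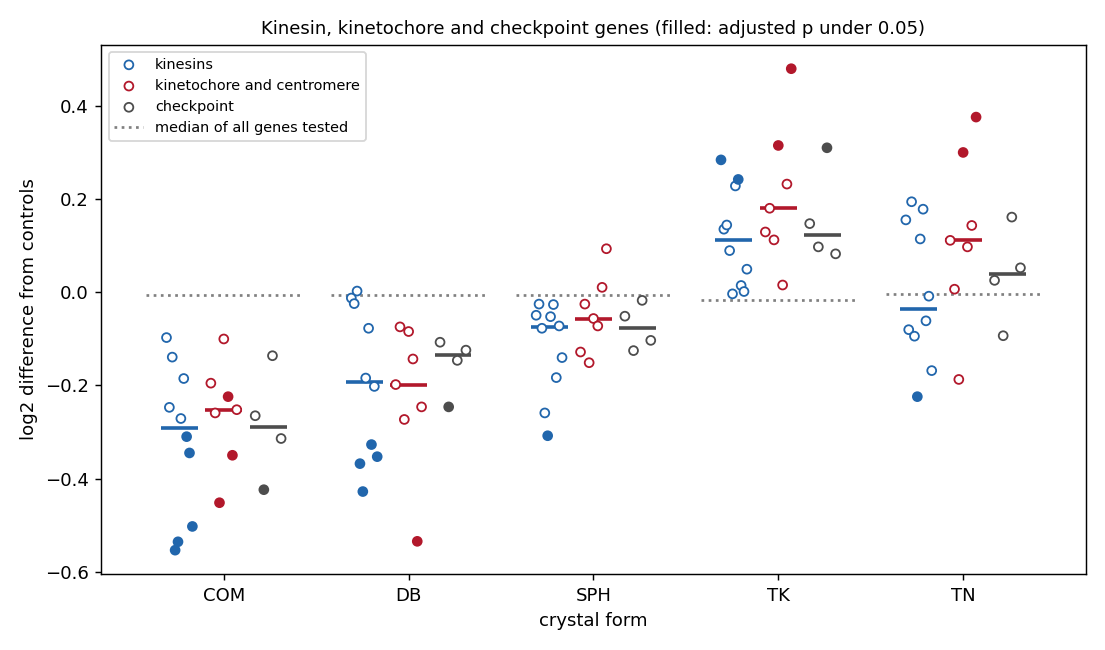
Log2 difference from controls (vertical axis) of each kinesin, kinetochore and checkpoint gene with each crystal form; filled points have an adjusted p under 0.05, short bars are medians and dotted lines the median of all genes tested. The 3 medians lie close together with COM, near -0.3, and with TK, between 0.11 and 0.18. They lie further apart with TN.

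The direction was checked within each library set, from a fit with 1 mean per group and set. With COM the median of the 50 was -0.37 in set 1 (2 COM and 2 control libraries), -0.16 in set 2 and -0.20 in set 3 (1 COM library each), with 20, 1 and 0 genes lower, against 1.44%, 0.155% and 0.0247% of all genes. For DB the medians were -0.22, -0.15 and -0.13, with 8, 0 and 1 lower, against 0.587%, 0.0433% and 0.903% of all genes. SPH changed sign, at -0.09, -0.22 and 0.04. TK, with libraries in set 2 alone, had a median of 0.16 there and 8 genes higher, against 6.41% of all genes. TN had 0.05, 0.11 and -0.01, with 5, 3 and 0 higher, against 7.48%, 3.5% and 0.0866% of all genes. Untreated cells were compared between sets as well. AURKB, NDC80, KIF4A and PRC1 were higher in set 2 controls than in set 1 controls, and the median of the 50 was 0.10. These 4 of 50 are near the share of all genes called higher, 6.47%. Control G of set 3 was below the set 1 controls at a median of -0.21, with no gene called by edgeR, 16 at an unadjusted p under 0.05, and 0.00618% of all genes called lower.

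**Figure D4:**
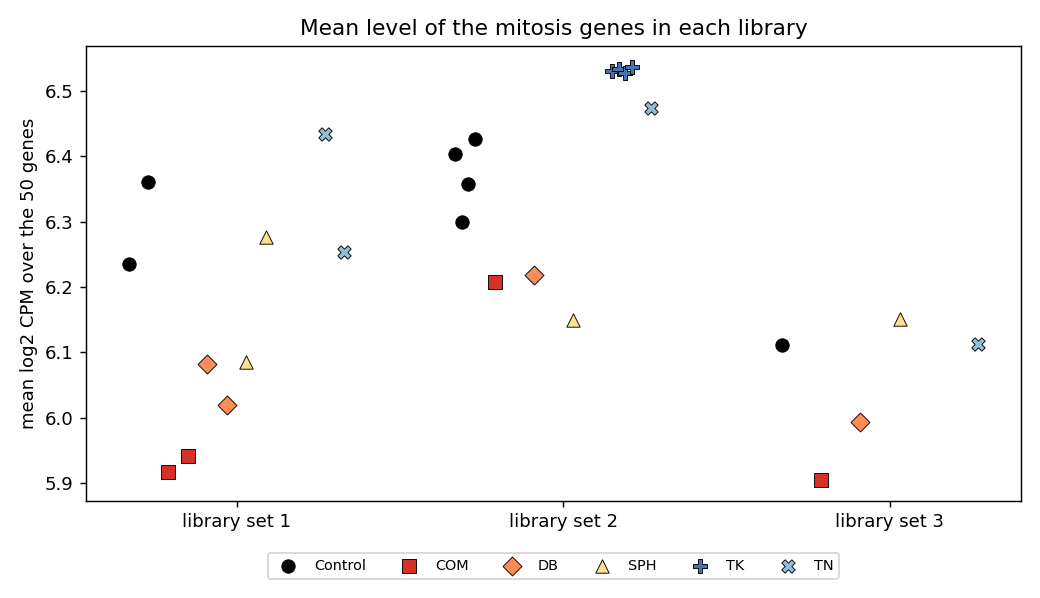
Mean log2 CPM of the 50 genes in each of the 27 libraries (vertical axis), by library set and with a symbol for each group. COM and DB libraries lie below the controls of their own set in all 3 sets, TK libraries lie at 6.53 to 6.54 above the set 2 controls, SPH libraries lie below, among or above the controls of their set, and TN libraries lie among or above them.

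Counted by library, 10 genes were lower in every COM library than in all 7 controls, against 1.8% of all genes, and 8 in every DB library, against 1.69%. Both lists held CKS2, INCENP, SPC24, KIF20A, KIF18B, KIFC1 and UBE2C, 7 of 10 and 7 of 8. COM added BUB1B, CENPF and ANLN, and DB added PTTG1. SPH had 3 such genes (KIF20A, KIF18B and UBE2C), against 0.309%. With TK, 18 genes were higher in every library than in all controls, against 8.14% of all genes, and 21 than in all set 2 controls, against 11.3%. TN had 1 gene above every control (CDC25B), against 1.57%, and 1 below (KIFC1), against 1.36%.

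Forms were then compared with each other at their common dose of 0.1 mg/mL, in 10 pairs, with p-values adjusted over all genes within a pair. COM against TK gave the most calls: 42 of the 50 genes were lower with COM, against 6.87% of all genes, with a median of -0.43. DB against TK gave 33 lower (8.9% of all genes), COM against TN 32 (2.62%), DB against TN 21 (5.68%), SPH against TK 8 (2.54%) and SPH against TN 2 (0.717%). KIF20A, the gene lower with 4 forms, differed between COM and TK (log2 -0.53, 95% interval -0.68 to -0.38, adjusted p = 5.79e-05). Single libraries moved several of these counts by over 1.5 times. COM against TN gave 9 without COM A and 11 without COM B or TN A, and DB against TN gave 12 without DB A, 10 without DB B and 6 without TN A. SPH against TK gave 0 without SPH C, 2 without SPH A, 5 without TK C or TK D, 13 without SPH B and 15 without SPH D. SPH against TN gave 0 without SPH A, SPH C or TN A, 1 without TN B and 4 without TN C or TN D. For these fits too, shares of all genes are not given. SPC25 had the largest difference between COM and TK (log2 -0.73, 95% interval -1.005 to -0.46, adjusted p = 0.000861), and MYBL2 was next (log2 -0.71, 95% interval -0.95 to -0.47, adjusted p = 0.000432). SPC24 had the largest between DB and TK (log2 -0.77, 95% interval -0.99 to -0.55, adjusted p = 5.73e-05). The 8 genes not called between COM and TK were CCNB2, CDC25B, CDC25C, KIF14, KIF18A, PTTG1, ECT2 and ASPM. Between plates and dumbbells no difference passed the test: COM against DB gave 0 calls by edgeR and 0 by DESeq2, 1 gene at an unadjusted p under 0.05, and 95% intervals of the 50 differences that ran from -0.49 to 0.38, where 0.068% of all genes were lower and 0.13% higher. Thick and thin bipyramids gave 0 calls by both tools and 1 higher with TK in edgeR without the filter, 5 genes at an unadjusted p under 0.05 and intervals from -0.35 to 0.73, where 0.185% of all genes were lower and 0.0309% higher. KIFC1 was the 1 gene called between COM and SPH (log2 -0.36, 95% interval -0.51 to -0.22, adjusted p = 0.0164; 0.148% of all genes lower) and SPC24 the 1 between DB and SPH (log2 -0.55, 95% interval -0.74 to -0.35, adjusted p = 0.0128; 0.0371%). The first was lost without COM A, COM B, SPH A, SPH B or SPH D, and the second without DB A, DB D or SPH D, where 0 genes were called. Leaving the set term out raised SPH against TK from 8 to 32 (6.02% of all genes) and cut COM against TN from 32 to 6 (0.427%) and DB against TN from 21 to 8 (1.92%). Inside set 2, which holds all TK libraries, the medians against TK were -0.38 for SPH, -0.33 for COM and -0.29 for DB. These forms have 1 library each there, so their order is uncertain. COM against SPH had a median of 0.06 in set 2, -0.27 in set 1 and -0.26 in set 3. COM against TN had -0.27 in set 2 and -0.20 in set 3, with 1 library of each form. Within set 2, where all forms stand beside TK, COM against TK gave 7 lower genes at a median of -0.33 (2.06% of all genes), and within set 1 COM against TN gave 34 at -0.39 (5.98%).

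**Figure D5:**
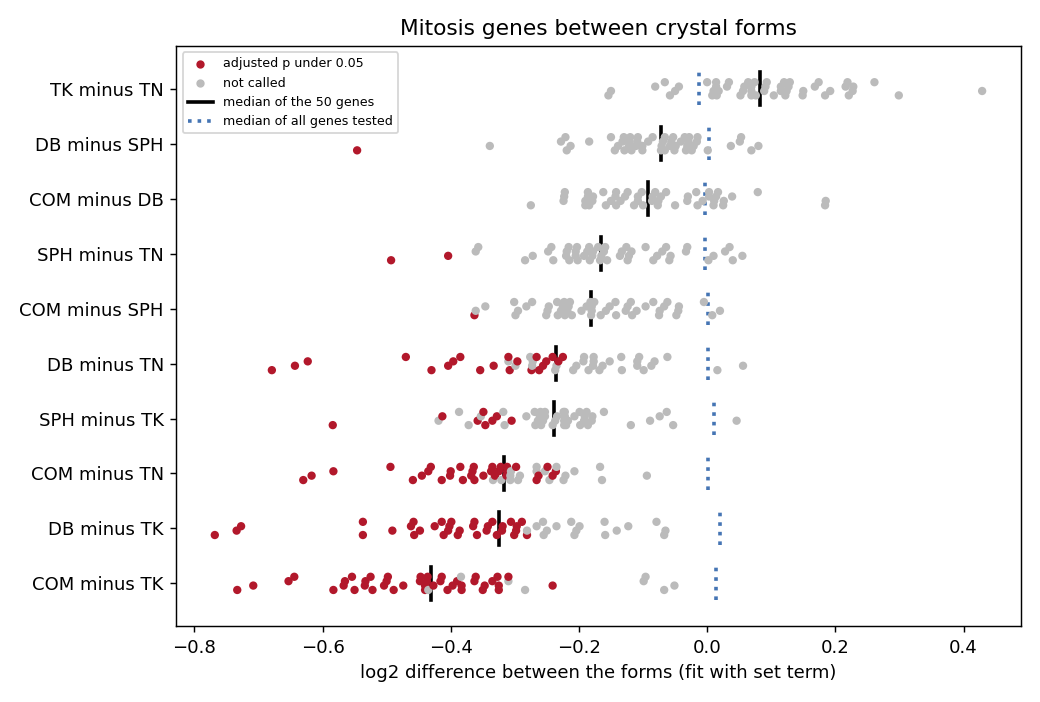
Log2 difference of each of the 50 genes (points) in the 10 pairs of crystal forms; red points have an adjusted p under 0.05, black bars are the medians of the 50 and dotted lines the medians of all genes tested. The pairs of COM or DB with TK or TN hold 21 to 42 red points, all below 0, and COM against DB and TK against TN hold none.

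Neighbouring programmes were counted beside these genes. Of 48 other mitosis genes (condensins, the outer kinetochore, separase and others), 14 fell with COM, 9 fell with DB, and with TK 14 rose and 1 fell. Over all genes tested, 2.42% fell with COM, 4.1% fell with DB, and with TK 8.04% rose and 7.33% fell. NCAPH, a condensin subunit, ran from 38.9 to 48.1 CPM in controls, with a median of 44.8. It held 31.3, 36.02, 37.7 and 33.6 CPM with COM, all below the controls (log2 -0.31, SE 0.08, adjusted p = 0.013), and 54.2, 52.1, 58.8 and 57.1 with TK, all above them (log2 0.32, SE 0.08, adjusted p = 0.00451). CDCA5 (sororin), which protects cohesion, ran from 46.3 to 60.9 CPM in controls, with a median of 54.05. It held 38.9, 36.2, 47.2 and 44.1 CPM with COM and 72.7, 71.01, 74.1 and 70.1 with TK, falling with the first (log2 -0.31, SE 0.08, adjusted p = 0.0172) and rising with the second (log2 0.32, SE 0.08, adjusted p = 0.00742).

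Of 24 S phase genes, 17 rose with TK (median 0.37), 8 rose with TN (median 0.20), 11 fell with DB (median -0.28) and 4 fell with COM (median -0.20). The shares of all genes were 8.04%, 6.84%, 4.1% and 2.42%. RRM2, a subunit of the enzyme that makes deoxynucleotides, ran from 170.2 to 201 CPM in controls, with a median of 178. It held 277, 276, 298 and 281 CPM with TK (log2 0.62, SE 0.09, adjusted p = 4.74e-05) and 322, 244, 223 and 194 with TN (log2 0.42, SE 0.09, adjusted p = 0.00206). UHRF1, which helps copy DNA methylation, ran from 72.3 to 97.4 CPM in controls, with a median of 86.5. It held 124, 119, 122 and 123 CPM with TK, all above the controls (log2 0.50, SE 0.09, adjusted p = 0.000536), and 53.5, 60.1, 61.7 and 71.1 with COM, all below them (log2 -0.43, SE 0.09, adjusted p = 0.00422).

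Of 12 genes of CDK inhibition and cell cycle exit, 10 had enough counts to be tested. With COM 3 rose and 1 (CDKN2C) fell, with DB 3 rose and with TN 1 rose. Of all genes, 3.94% rose and 2.42% fell with COM, 5.92% rose with DB and 6.84% rose with TN, so 1 of 10 with TN is near the share of all genes. GADD45A, a gene of growth arrest after damage, ran from 37.2 to 71.6 CPM in controls, with a median of 54.5. It held 75.6, 81.5, 82.6 and 78.1 CPM with COM, all above the controls, and 52.4, 64.3, 88.8 and 82.7 with DB. GADD45A rose with COM (log2 0.67, SE 0.12, adjusted p = 0.000668), DB (log2 0.50, SE 0.12, adjusted p = 0.00718) and TN (log2 0.44, SE 0.12, adjusted p = 0.0158), and without the set term the COM call stayed (adjusted p = 0.044) while those with DB (0.112) and TN (0.272) were lost. CDKN1A, the CDK inhibitor p21, ran from 183 to 291 CPM in controls, with a median of 221. It held 364, 359.9, 239.8 and 349.9 CPM with COM and 309.9, 327, 264 and 452 with DB, rising with both (log2 0.35, SE 0.08, adjusted p = 0.00656 for COM and log2 0.39, SE 0.08, adjusted p = 0.00233 for DB). In untreated cells of set 2 against set 1, CDKN1A was lower (log2 -0.39, adjusted p = 0.00461) and GADD45A higher (log2 0.61, adjusted p = 0.00355).

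Of 15 MuvB and E2F regulators, 6 rose with TK, 1 fell with TK (TFDP2, log2 -0.16, close to the threshold) and 5 rose with TN, against 8.04%, 7.33% and 6.84% of all genes. E2F2, an activating E2F, ran from 4.79 to 8.10 CPM in controls, with a median of 6.59. It held 13.5, 13.1, 10.96 and 14.96 CPM with TK, all above the controls (log2 0.88, SE 0.16, adjusted p = 0.000511), and 9.80, 9.81, 8.31 and 7.14 with TN (log2 0.56, SE 0.15, adjusted p = 0.0174), of which D lay inside the control range. The TN call was lost without the set term (adjusted p = 0.158). RBL1, the pocket protein p107, ran from 13.6 to 21.2 CPM in controls, with a median of 18.3. It held 29.3, 32.2, 26.9 and 29.96 CPM with TK (log2 0.61, SE 0.10, adjusted p = 0.000235) and 29.97, 20.05, 27.2 and 21.2 with TN (log2 0.51, SE 0.10, adjusted p = 0.0014), and TN B and TN D stayed inside the control range. Whether the liver transcripts and LYZ of TN B or the fragment length moved these values was not tested.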

How the data were processed

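RNA was measured in 27 libraries of MCF10DCIS.com cells. The deposited tables, 1 per library, hold RSEM expected counts, TPM and effective lengths per gene. The submitters' processing notes name Trim Galore, Bowtie2, RSEM and GRCh38, without versions, and no source used here states whether counting used strand. Expected counts were rounded, filtered with filterByExpr on the 6 groups and scaled by TMM, and CPM are on that scale. Differences come from edgeR 4.0.16 (quasi-likelihood F-test, R 4.3.3) in 1 fit of all 27 libraries on group and library set, with Benjamini-Hochberg adjustment over 16173 genes and calls at adjusted p under 0.05. The test was checked on simulated counts. Alternatives were fits without the set term, with replicate letters as a block, within each set, with TN C in set 1, with DESeq2's size factors, without a filter, with DESeq2 1.42.0, and without each library. Comparisons of forms within sets were added after seeing the data. The 50 genes and the other lists were chosen with earlier results of these data known. Values by library are given for the 2 genes of each role, and the 2 of each further list, with the smallest p in the joint test. Other genes are named by their call, and BRD8 for exons that overlap a member. Promoter letters are from RefSeq on GRCh38.p14, and gene positions from GENCODE on GRCh38.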

Additional observations from a re-analysis of the deposited data

Results flagged for a closer look

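Of 114 groups of values by library (18 genes and the mean of the 50, in 6 groups), 13 held a library far from the others by Dixon's 95% criterion, where chance flags about 1 in 20. Library COM C, the 1 COM library of set 2, accounted for 4. Its mean log2 CPM over the 50 genes was 6.21, against 5.91 to 5.94 in the other COM libraries. TPX2 was at 186 CPM in COM C, against 130 to 132. TOP2A was at 245 CPM there, against 175 to 184. MYBL2 was at 81.3 CPM there, against 58.9 to 61.9.

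DB C, also of set 2, held MYBL2 at 79.6 CPM, against 58.6 to 61.5 in the other DB libraries. Control G, the 1 control of set 3, was lowest for CCNB1, at 155 CPM against 184 to 207, and for MAD2L1, at 52.7 CPM against 66.1 to 78.2. In the SPH group, SPH A had MKI67 at 206 CPM, against 331 to 336, and SPH B had UBE2C at 50.8 CPM, against 55.1 to 55.3. In the TK group, TK C had MAD2L1 at 96.4 CPM, against 85.4 to 86.8, TK A had KIFC1 at 69.5 CPM, against 68.4 to 68.5, and TK D had KIF20A at 140.0 CPM, against 133 to 134. TN B had AURKB at 56.2 CPM, against 49.1 to 49.8.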

How the results depend on the processing

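No called value of the 18 genes given by library changed sign under any alternative. Leaving out each library in turn gave 14 to 29 called genes for COM (22 with all libraries), 8 to 14 for DB (13), 0 to 1 for SPH (1), 6 to 11 for TK (10), 2 to 7 for TN (7), 34 to 42 for the joint test (39), 103 to 149 over the 10 pairs of forms (140) and 0 to 5 between the controls of sets 2 and 1 (4). Without the set term SPH gave 0 and TN 1. Of all genes, that fit called 7 with SPH and 695 with TN, against 18 and 1896 with the term. Within set 1, DB gave 8 and SPH 0, where 339 and 10 of all genes were called. Within set 2, COM gave 1, DB 0, SPH 0 and TN 3. Within set 3, COM gave 0, DB 1, SPH 0 and TN 0. These fits compare as few as 1 library of a form with 1 control. With DESeq2's size factors SPH gave 0. Without a filter SPH gave 2, and the controls of sets 2 and 1 differed in 0 genes. For each such change of setting the cause was not tested. Replicate letters largely follow the library sets, so a pairing by letter could not be told apart from the sets. Correlations of same-letter deviations ran from -0.158 to 0.446, with a median of 0.07 against -0.02 for different letters. The median was 0.13 within a set and -0.06 between sets, and 14 of 27 libraries correlated best with their own letter. With the letter as a replicate block in place of the set term, COM gave 15 genes, DB 10, SPH 0, TK 10, TN 0, the joint test 43 and the pairs 154. Among the pairs the block gave 7 genes higher with TK than TN, where 0 were called with the set term, 38 for SPH against TK, and 10 each for COM and DB against TN. DESeq2's test called 27 genes with COM, 15 with DB, 1 with SPH, 10 with TK and 8 with TN. Shares of all genes are not given for DESeq2's test, the block, the size factors, or fits without a filter or without a library. Whether a changed count there followed the number of all genes called was not tested. Of 33 calls among the 90 gene and form values, 7 were lost without the set term, 13 with the block and none with DESeq2. TK could not be fitted in sets 1 and 3, where it has no library, and the joint and pair counts were not computed within sets. Depth limits low genes most: SPC25 and E2F2 lay near 10 CPM.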
